A study of Mus musculus with 21 samples.

Results

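The genes described here are 34 members of the interferon response and of nucleic acid sensing, chosen by name from a fixed list and read in every library of the count table, which holds 17164 genes. All 34 were in the table and all 34 passed the filter on low counts, which kept 16797 genes. By role they are 6 signalling factors, 3 sensors of RNA, 3 sensors of DNA with their adaptor, 12 antiviral effectors, 3 guanylate-binding GTPases and 7 nuclear, ubiquitin and ADP-ribosylation factors.

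RNA sequencing was done on sorted retinal ganglion cells (neurons that send their axons through the optic nerve) 3 days after crush of that nerve. The mice were C57BL/6, aged 6 to 7 weeks in the submitters' sample sheet. The groups were 5 libraries of cells given guide RNA against ATF3, 2 against ATF4, 4 against CEBPG (C/EBP gamma) and 5 against CHOP (encoded by Ddit3), called knockouts below as in the labels, and 4 control libraries. All groups were injured, none was uncrushed, and how guides and nuclease reached the cells, which cells carried edits and how many animals made a library have no statement in the sources used here. Each library was made from 5000 to 10000 sorted cells with a low-input full-length cDNA kit. All ATF3, CEBPG and CHOP knockouts were female and of batch 3 in the sheet, and the controls were male and of batch 2. The ATF4 knockouts were of batch 1, with replicate 1 given as female and replicate 3 as male. Knockout and batch therefore cannot be told apart in any comparison with the controls, nor can sex outside ATF4, and a shared batch and sex are found only among the ATF3, CEBPG and CHOP knockouts.

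Interferons are cytokines of antiviral defence. Type I interferons signal through a complex that includes Stat2 and Irf9 and binds the interferon-stimulated response element, and interferon gamma, made mainly by T and NK lymphocytes, acts on genes with a gamma-activated site. RNA sensors of the RIG-I family and the DNA sensor cGAS with its adaptor STING induce type I interferon when they meet foreign or misplaced nucleic acid, and in the retina microglia and invading leukocytes are well known to express many of these genes.

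Counted reads per library lay between 6401446 and 32776378. Transcripts of the targeted genes did not mark their own group alone. Atf3 was at -1.56, SE 0.25, adjusted p = 2.41e-05 in ATF3 knockouts against the controls on the log2 scale, and at -1.62, SE 0.25, adjusted p = 1.48e-05 in CHOP knockouts. Cebpg in CEBPG knockouts was at -0.16, SE 0.16, adjusted p = 0.491. Atf4 was lower in all 4 knockouts, at -1.77 in ATF3, -0.97 in ATF4, -1.22 in CEBPG and -1.50 in CHOP knockouts. Ddit3 was at -0.51 in ATF3, -0.41 in CEBPG and -0.43 in CHOP knockouts, all lower at an adjusted p below 0.05. In ATF4 knockouts Ddit3 was at 0.37 (adjusted p = 0.0777). A guide RNA edit need not lower the transcript, and these values are therefore no check of the labels. Summed over 12 ganglion cell markers, libraries were at 475 to 722 CPM (read counts relative to library size, scaled by the TMM method). At an adjusted p below 0.05, 1 of the 12 was higher and 4 lower in CEBPG knockouts than in the controls (all genes 18.3% and 15%). The other 7 did not pass. In ATF3 knockouts 3 were higher and 6 lower (18.6% and 14.8%). The counts were 5 and 0 in ATF4 (16.6% and 14.6%) and 2 and 4 in CHOP knockouts (18.1% and 15.4%). The ganglion cell factor Pou4f2 was at 0 reads in all 4 CEBPG knockouts. Summed over 15 microglia markers, libraries were at 3592 to 7160 CPM, so the sorted material held RNA of other cells. Sums were 6313 to 14306 CPM for 11 Mueller glia and 1686 to 8741 CPM for 12 amacrine markers. Against the controls, in the order ATF3, ATF4, CEBPG and CHOP, amacrine markers were higher for 11, 10, 9 and 11 and lower for 0. For Mueller glia the counts higher and lower were 2 and 5, 7 and 0, 2 and 7, and 1 and 6. For 12 bipolar markers they were 4 and 3, 2 and 3, 0 and 12, and 0 and 9. The shares of all genes are those given above. Rod markers took 33384 to 52996 CPM in the controls and 2755 to 8028 CPM in all knockouts. ATF4 replicate 1 is female in the sheet, yet held the Y-linked Ddx3y at 61.5 CPM and Xist at 0.26 CPM. A further library, titled as a control and labelled as a CHOP knockout, entered no group. It was of batch 4 in the sheet, which no grouped library shared. It held 33665965 counted reads, against 6401446 to 11752828 in the controls and 14272784 to 31543917 in CHOP knockouts. Checks that place it in a group therefore also add a batch and a greater depth to that group. In bulk RNA, fewer cells of a type and less RNA per cell cannot be told apart.

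The start-site sequences of 25 of the 34 members are held in the RefSeq promoter table (mouse build GRCm38.p6, 250 bases before to 50 after each start). The following are shown because Irf1, Gbp2 and Gbp7 were lower than in the controls in 3 of the 4 knockouts, Isg15 is the archetype of a type I stimulated gene and Sp100 is the member with the largest log2 fold change in CEBPG knockouts against the controls. Capitals mark matches to the core of the interferon-stimulated response element, 2 copies of GAAA with any 2 bases between them, or of the gamma-activated site, TTCNNNGAA, on either strand.
Irf1 (chr11:53769764-53770063, plus strand, first of the annotated starts): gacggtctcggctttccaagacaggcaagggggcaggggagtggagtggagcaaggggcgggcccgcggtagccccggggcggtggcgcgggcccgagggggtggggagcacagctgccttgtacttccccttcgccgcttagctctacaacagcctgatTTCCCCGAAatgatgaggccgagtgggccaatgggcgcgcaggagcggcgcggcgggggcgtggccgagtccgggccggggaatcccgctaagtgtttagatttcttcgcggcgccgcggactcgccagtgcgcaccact
Gbp2 (chr3:142620413-142620712, plus strand): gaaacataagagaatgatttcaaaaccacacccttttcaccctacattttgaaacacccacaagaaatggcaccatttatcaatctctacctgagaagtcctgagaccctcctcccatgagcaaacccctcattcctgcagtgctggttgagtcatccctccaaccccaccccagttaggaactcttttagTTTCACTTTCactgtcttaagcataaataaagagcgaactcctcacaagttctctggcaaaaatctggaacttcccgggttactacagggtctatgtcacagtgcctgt
Gbp7 (chr3:142530086-142530385, plus strand): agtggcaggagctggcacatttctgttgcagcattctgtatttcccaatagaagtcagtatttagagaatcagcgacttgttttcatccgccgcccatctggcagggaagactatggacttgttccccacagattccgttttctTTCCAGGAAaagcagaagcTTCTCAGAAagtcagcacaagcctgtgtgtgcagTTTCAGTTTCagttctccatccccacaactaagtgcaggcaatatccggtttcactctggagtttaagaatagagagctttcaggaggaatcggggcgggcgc
Isg15 (chr4:156200769-156201068, minus strand): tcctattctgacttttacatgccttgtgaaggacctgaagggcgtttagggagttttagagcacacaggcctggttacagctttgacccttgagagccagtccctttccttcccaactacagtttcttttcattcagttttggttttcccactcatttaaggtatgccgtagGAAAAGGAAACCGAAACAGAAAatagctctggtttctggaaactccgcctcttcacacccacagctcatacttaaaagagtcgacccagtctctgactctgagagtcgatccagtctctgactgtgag
Sp100 (chr1:85649738-85650037, plus strand, first of the annotated starts): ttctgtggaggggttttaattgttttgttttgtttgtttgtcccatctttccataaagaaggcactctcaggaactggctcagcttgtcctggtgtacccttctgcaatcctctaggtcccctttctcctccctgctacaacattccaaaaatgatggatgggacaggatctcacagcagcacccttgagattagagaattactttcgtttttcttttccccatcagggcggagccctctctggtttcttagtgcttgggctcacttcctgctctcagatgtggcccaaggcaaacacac
The Irf1 window held a gamma-activated site core 90 bases before the start and no response element core, whereas Gbp2 held a response element core at -59 and no gamma-activated site. Gbp7 held both kinds, with a response element core at -53 and gamma-activated site cores at -106 and -87. Isg15 held 3 overlapping response element cores, at -78, -72 and -66. Neither set of letters was in the Sp100 window. Of the members not shown, Irf7 also held neither, and the first Gbp3 window held response element cores at -45 and -39. Over all matched members, 14 of 25 (56%) held the GAAA pair, as did 3.99% of the 27025 genes in the table. TTCNNNGAA stood in 8 of 25 (32%) and in 9.55% of all genes. Of the cores for bZIP factors, TGATGNAA (a C/EBP-ATF composite site) stood in 2 of 25 members (8%) and in 4.51% of all genes, and the cAMP response element TGACGTCA in 0 of 25 and in 2.03%. A match describes letters and is not evidence of binding. Usp18, Oas2, Mx1, Mx2, Dhx58, Zbp1, Parp9, Parp14 and Tmem173 had no entry in that table.

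**Figure D1:**
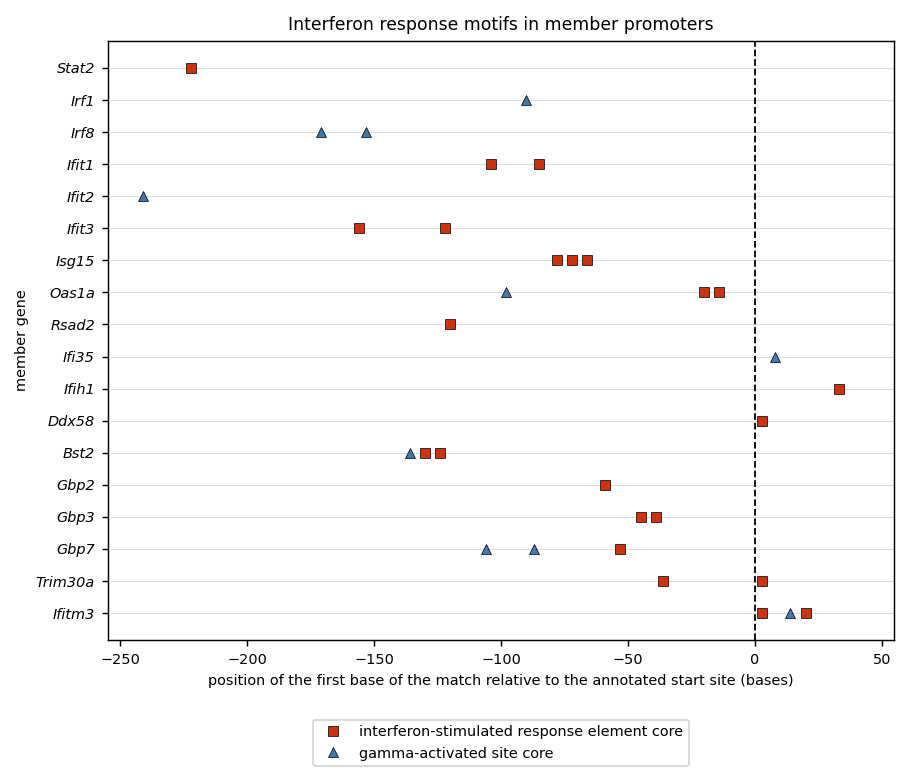
Positions of matches in the promoter windows of the members that hold at least 1 (x axis, bases from the annotated start site, dashed line at the start; y axis, member gene; squares, response element cores; triangles, gamma-activated site cores; all annotated starts of a gene on 1 line). Isg15 has 3 squares close together before its start, Irf1 a single triangle at -90, and Gbp7 both kinds.

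Across the 5 groups the members stood highest in CEBPG knockouts and lowest in ATF4 knockouts. The CEBPG knockouts had the highest mean of the 5 groups for 27 of 34 members, and the ATF4 knockouts the lowest mean for 24. How often each group held these places over all genes was not counted, and the ATF4 means rest on 2 libraries. The CPM of all 34 members together came to 1242 to 1330 in ATF3, 787 to 953 in ATF4, 1878 to 2206 in CEBPG and 1046 to 1264 in CHOP knockouts, and to 1302 to 1562 in the controls. Every CEBPG library thus stood above every other library, and every ATF4 library below them. Per kilobase of annotated exon, Ifitm3 and Bst2 were the highest of the members in every group, with means of 94.8 and 68.5 CPM per kilobase in CEBPG knockouts and 73.8 and 58.6 in the controls, while Mx1, a gene whose product is known to be defective in C57BL/6 mice, was at 1.03 CPM per kilobase in ATF3 knockouts.

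The tests were taken from a single edgeR quasi-likelihood fit over all 20 libraries. A call was made at an adjusted p below 0.05 (Benjamini-Hochberg over the 16797 genes). The failed calls named per gene below leave out a fit with a term for the replicate number, which is described at the end. Under that fit more calls failed, among them Isg15 for CEBPG against CHOP (adjusted p = 0.721) and Usp18 for CEBPG against the controls (adjusted p = 0.152). Within the batch that the ATF3, CEBPG and CHOP knockouts share, 21 members were higher and 0 lower in CEBPG than in CHOP knockouts, where 13.5% of all genes were higher and 13.2% lower. The median member was at 0.94 on the log2 scale, against -0.03 for all genes. In the ATF3 knockouts 0 members were higher and 18 lower than in CEBPG knockouts (all genes 10.1% and 10.2%), with a median of -0.64 against -0.00. With 1 library left out 11 to 16 were lower, the fewest without ATF3 replicate 9. Between the ATF3 and CHOP knockouts 0 of 34 members passed (all genes 1.51% higher and 0.756% lower), with a median of 0.15 against -0.01. At an unadjusted p below 0.05, 5 members were higher and 1 lower in that comparison, and DESeq2 called 1 member, Parp9, higher.

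Against the controls the knockouts differed in direction. In the CEBPG knockouts 17 members were higher and 0 lower (all genes 18.3% and 15%), with a median of 0.66 against 0.06. The ATF4 knockouts had 0 higher and 12 lower (all genes 16.6% and 14.6%), with a median of -0.55 against 0.00, and 8 lower without ATF4 replicate 1. The counts in ATF3 knockouts were 4 higher and 7 lower (18.6% and 14.8%), with a median of 0.10 against 0.06. That median turned to -0.02 without control replicate 8 and was 0.29 without control replicate 7. In the CHOP knockouts 3 were higher and 10 lower (18.1% and 15.4%), with a median of 0.05 against 0.01 that turned to -0.09 without CHOP replicate 1 and was also below 0 without control replicate 5 or 8. The share of members called higher lay below that of all genes in the ATF3 and CHOP knockouts, and the share called lower above it. The 4 comparisons share the controls and are not independent of each other.

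**Figure D2:**
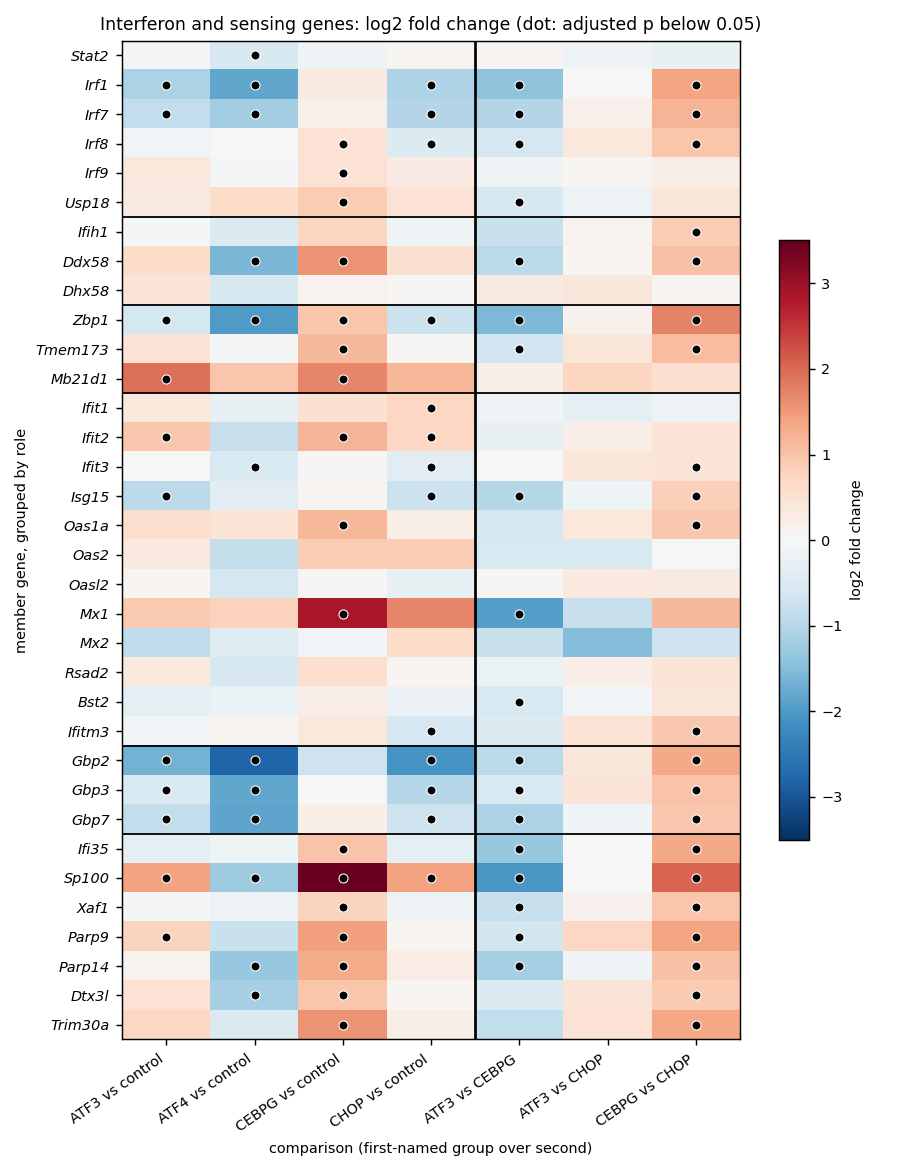
Log2 fold change (colour, red higher and blue lower in the first-named group) of the 34 members (y axis, grouped by role) in the 7 comparisons (x axis; the vertical line parts those against the controls from those within batch 3); a dot marks an adjusted p below 0.05. The ATF3 against CHOP column holds 0 dots, and the CEBPG against CHOP column holds 21, all on red cells.

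Groups that do not overlap were counted as well. All CEBPG libraries lay above all CHOP libraries for 18 members and below them for 0, where this held for 11.3% and 9.92% of all genes. All ATF3 libraries lay below all CEBPG libraries for 14 members and above them for 0 (11.1% and 11.2% of all genes). Against the controls, all CEBPG libraries were above for 14 members and below for 0 (14.1% and 12.8%), and all ATF4 libraries were above for 1 and below for 13 (23.7% and 21.1%). The ATF3 libraries were all above for 7 and all below for 5 (18.9% and 15.4%), and the CHOP libraries for 3 and 7 (15.4% and 13.5%). Between the ATF3 and CHOP knockouts, 2 members were apart, Ifit3 and Ifitm3, both with the ATF3 libraries above (4.47% of all genes above and 3.60% below).

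Among the signalling factors, Irf1 and Irf7 were low in every knockout except CEBPG. Irf1, a transcription factor strongly induced by interferon gamma, was at 58.1, 69.9, 69.4, 58.1 and 61.5 CPM in ATF3, 40.4 and 35.8 CPM in ATF4 and 187, 170.0, 144 and 174 CPM in CEBPG knockouts. The CHOP knockouts held 66.9, 69.9, 63.1, 57.3 and 65.5 CPM of Irf1, and the controls 127, 132, 177 and 106 CPM. Every ATF3, ATF4 and CHOP library thus lay below every control, and the CEBPG libraries overlapped the controls. Against the controls Irf1 was at -1.096 (SE 0.13, adjusted p = 4.84e-07) in ATF3, -1.83 (SE 0.18, adjusted p = 1.34e-07) in ATF4 and -1.07 (SE 0.13, adjusted p = 6.00e-07) in CHOP knockouts. In the CEBPG knockouts it was at 0.32 (SE 0.14, adjusted p = 0.0781), and it passed once CEBPG replicate 9, or else control replicate 7, was left out (adjusted p = 0.0431 and 0.00643). Within batch 3 it was higher in CEBPG than in CHOP knockouts, at 1.39 (SE 0.13, adjusted p = 5.47e-08), and lower in ATF3 than in CEBPG knockouts, at -1.41 (SE 0.13, adjusted p = 6.90e-08).

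Irf7, the factor that amplifies type I interferon production, was at 57.6, 57.5, 68.00, 64.96 and 57.98 CPM in ATF3, 35.3 and 59.5 CPM in ATF4 and 124, 118, 122 and 132 CPM in CEBPG knockouts. It was at 48.2, 51.4, 74.3, 57.8 and 39.4 CPM in CHOP knockouts and 97.6, 109, 116 and 118 CPM in the controls. The CEBPG libraries all lay just above the controls and the libraries of the other knockouts all below them. Its log2 fold change against the controls was -0.85 (SE 0.16, adjusted p = 1.53e-04) in ATF3, -1.22 (SE 0.21, adjusted p = 1.24e-04) in ATF4, 0.17 (SE 0.16, adjusted p = 0.455) in CEBPG and -1.02 (SE 0.16, adjusted p = 1.50e-05) in CHOP knockouts. It was 1.19 (SE 0.16, adjusted p = 4.58e-06) for CEBPG against CHOP and -1.02 (SE 0.15, adjusted p = 4.31e-05) for ATF3 against CEBPG.

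Irf8, a lineage factor of microglia and monocytes, was at 120.4, 99.9, 96.8, 115 and 107 CPM in ATF3, 124 and 105 CPM in ATF4 and 159.6, 147, 179 and 178 CPM in CEBPG knockouts. It was at 76.8, 77.7, 116, 77.5 and 72.5 CPM in CHOP knockouts, where replicate 3 stood apart, and at 119, 98.6, 132 and 115 CPM in the controls. The CEBPG libraries were all above the rest. Irf8 was higher in CEBPG knockouts than in the controls (0.51, SE 0.14, adjusted p = 0.00593) and lower in CHOP knockouts (-0.47, SE 0.13, adjusted p = 0.00819). It was also higher in CEBPG than in CHOP knockouts (0.98, SE 0.13, adjusted p = 6.81e-06) and lower in ATF3 than in CEBPG knockouts (-0.62, SE 0.13, adjusted p = 0.00137). Counted as a control, the library in no group left the CEBPG difference at 0.28 (adjusted p = 0.2598) and moved that of CHOP to -0.70. Counted as a CHOP knockout, it moved CHOP against the controls to -0.12 and CEBPG against CHOP to 0.64 (adjusted p = 0.7400 and 0.0531).

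Irf9, the DNA-binding subunit of the type I complex, was higher in CEBPG knockouts than in the controls (0.501, SE 0.15, adjusted p = 0.0127), a call that failed on omitting CEBPG replicate 9 or control replicate 8, with the 2 groups fitted alone or with the library in no group as a control (adjusted p from 0.0529 to 0.0633). Usp18, which removes Isg15 from proteins and dampens the receptor, was higher in CEBPG knockouts than in the controls (0.89, SE 0.21, adjusted p = 0.00179). It stood lower in ATF3 than in CEBPG knockouts (-0.57, SE 0.19, adjusted p = 0.0392), a call that failed on omitting ATF3 replicate 5, 7, 8 or 9 or CEBPG replicate 10 (adjusted p from 0.05504 to 0.256). Stat2, Irf9's partner, was lower in ATF4 knockouts alone among the comparisons (-0.57, SE 0.19, adjusted p = 0.0225), a call that failed on omitting ATF4 replicate 1 or control replicate 4 or with the library in no group as a control (adjusted p from 0.0522 to 0.292).

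**Figure D3:**
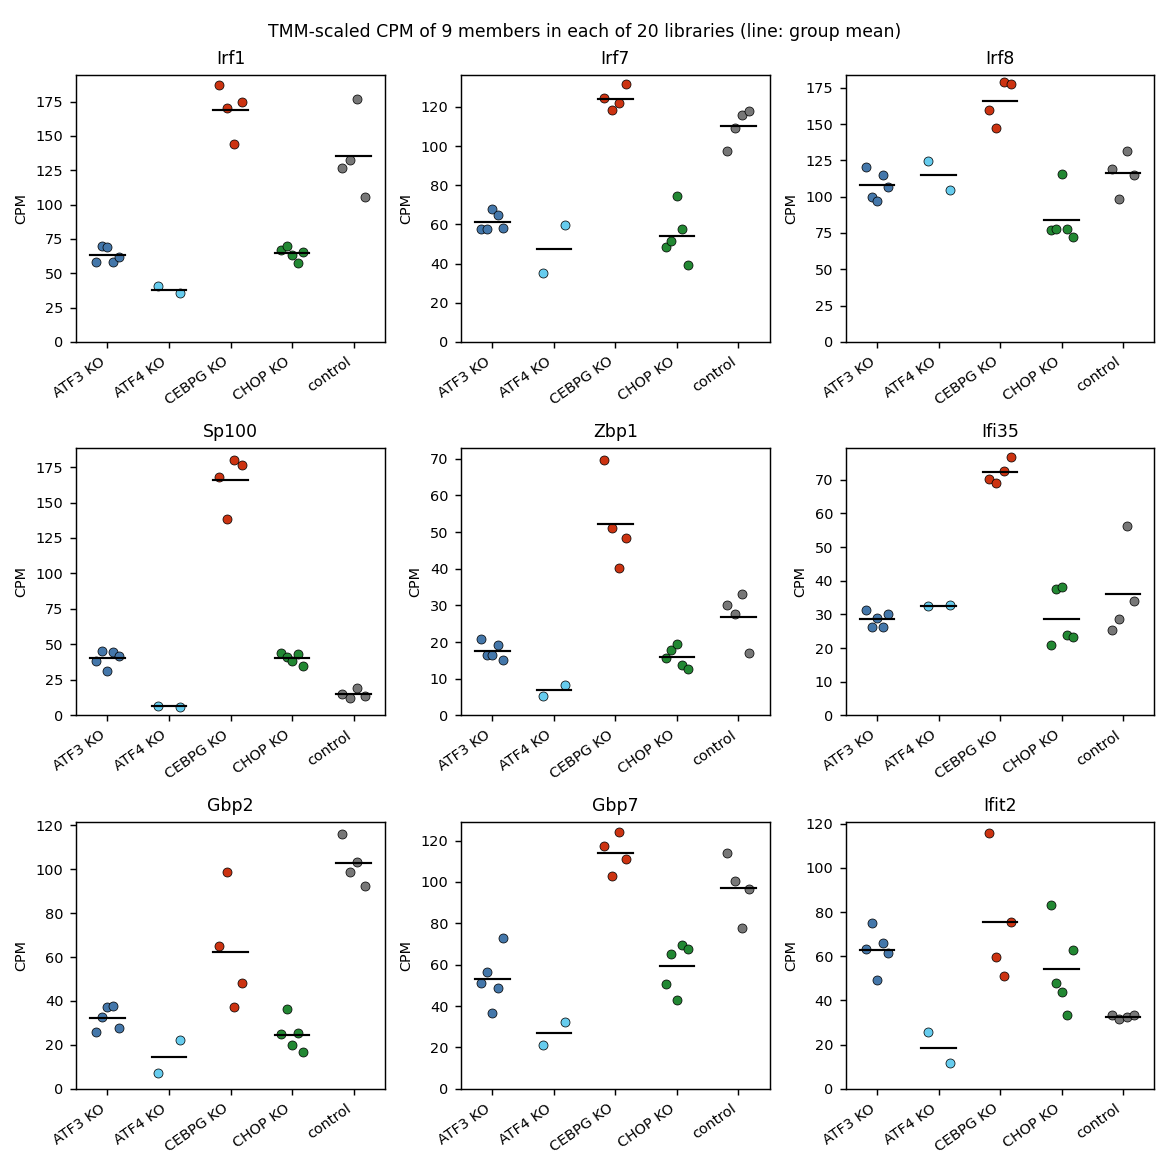
CPM (y axis, linear from 0) of 9 members in each library (points) of the 5 groups (x axis), with group means as lines. Sp100 and Ifi35 stand highest in the 4 CEBPG libraries, while for Irf1, Irf7 and Gbp7 every CEBPG and control library lies above every library of the other knockouts.

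Of the RNA sensors, Ddx58, which encodes RIG-I, was at 27.9, 14.5, 27.1, 30.8 and 20.6 CPM in ATF3, 2.26 and 8.03 CPM in ATF4 and 47.7, 21.4, 57.6 and 59.5 CPM in CEBPG knockouts. It was at 22.6, 25.3, 28.4, 20.8 and 18.3 CPM in CHOP knockouts and 17.02, 19.8, 9.69 and 16.1 CPM in the controls. Both ATF4 libraries lay below all controls and all CEBPG libraries above them, with CEBPG replicate 8 within the range of the other batch 3 knockouts. Ddx58 was higher in CEBPG knockouts than in the controls (1.58, SE 0.34, adjusted p = 7.41e-04) and than in CHOP knockouts (1.01, SE 0.31, adjusted p = 0.01703). It stood lower in ATF3 than in CEBPG knockouts (-0.94, SE 0.31, adjusted p = 0.0311) and in ATF4 knockouts than in the controls (-1.59, SE 0.45, adjusted p = 0.00923). The ATF4 value rested on replicate 1, being -0.95 without it (adjusted p = 0.204) and -2.78 without replicate 3. The CEBPG against CHOP call failed on omitting CEBPG replicate 10 (adjusted p = 0.0563). The ATF3 against CEBPG call failed on omitting ATF3 replicate 6 or 9 or CEBPG replicate 6, 9 or 10 (adjusted p from 0.0572 to 0.0945). Ifih1, which encodes MDA5, was higher in CEBPG than in CHOP knockouts (0.899, SE 0.33, adjusted p = 0.0459), a call that failed on omitting CEBPG replicate 6, 8 or 10 or CHOP replicate 1, 2, 4 or 5, with the library in no group as a CHOP knockout or without CEBPG replicates 6 and 8 together (adjusted p from 0.05200 to 0.202). Dhx58, which encodes the regulatory helicase LGP2, did not pass in any comparison and averaged between 12.5 CPM in ATF4 and 25.04 CPM in ATF3 knockouts.

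Among the DNA sensors, Zbp1, a sensor of Z-form nucleic acid that can trigger necroptosis, was at 20.9, 16.6, 16.4, 19.1 and 15.01 CPM in ATF3, 5.38 and 8.27 CPM in ATF4 and 69.7, 51.04, 40.1 and 48.5 CPM in CEBPG knockouts. It was at 15.5, 17.7, 19.4, 13.6 and 12.7 CPM in CHOP knockouts and 29.98, 27.5, 32.98 and 16.9 CPM in the controls. The CEBPG libraries stood above all others and the ATF4 libraries below all others. Its log2 fold change against the controls was 0.96 (SE 0.23, adjusted p = 0.00199) in CEBPG, -1.97 (SE 0.31, adjusted p = 4.00e-05) in ATF4 and -0.76 (SE 0.22, adjusted p = 0.00777) in CHOP knockouts. In the ATF3 knockouts it was -0.61 (SE 0.21, adjusted p = 0.0318), a call that failed on omitting ATF3 replicate 6, 7 or 9 or control replicate 4, 5 or 7 or with the library in no group as a control (adjusted p from 0.0536 to 0.111). Within batch 3 it was 1.73 (SE 0.22, adjusted p = 2.76e-06) for CEBPG against CHOP and -1.57 (SE 0.21, adjusted p = 1.28e-05) for ATF3 against CEBPG.

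Tmem173, which encodes the adaptor STING, was at 56.9, 56.01, 53.8, 46.6 and 50.6 CPM in ATF3, 45.5 and 26.6 CPM in ATF4 and 53.2, 85.9, 101 and 94.2 CPM in CEBPG knockouts. It was at 49.7, 33.7, 51.4, 27.2 and 34.2 CPM in CHOP knockouts and 33.7, 32.1, 56.6 and 29.7 CPM in the controls. The CEBPG libraries lay above all CHOP libraries, and control replicate 7 reached the lowest of them. It was higher in CEBPG knockouts than in the controls (1.13, SE 0.24, adjusted p = 6.46e-04) and than in CHOP knockouts (1.09, SE 0.22, adjusted p = 7.14e-04). It stood lower in ATF3 than in CEBPG knockouts (-0.66, SE 0.22, adjusted p = 0.0348), a call that failed on omitting ATF3 replicate 6, 7, 8 or 9 or CEBPG replicate 8, 9 or 10 (adjusted p from 0.0525 to 0.102). Mb21d1, which encodes the sensor cGAS, was low, at 10.5, 6.31, 8.87, 5.31 and 9.34 CPM in ATF3, 5.205 and 3.16 CPM in ATF4, 7.700, 1.35, 4.86 and 14.00 CPM in CEBPG and 4.69, 4.05, 4.72, 7.03 and 3.37 CPM in CHOP knockouts, and 2.97, 1.296, 3.91 and 0.268 CPM in the controls. The ATF3 libraries lay above all controls, and the CEBPG libraries spread across them. Mb21d1 was higher in ATF3 (1.92, SE 0.61, adjusted p = 0.0175) and CEBPG knockouts (1.71, SE 0.63, adjusted p = 0.0386) than in the controls. The ATF3 call failed on omitting control replicate 5 or 8 or with the library in no group as a control (adjusted p from 0.0545 to 0.275). The CEBPG call failed on omitting CEBPG replicate 6 or 10 or control replicate 5 or 8, with the 2 groups fitted alone or with the library in no group as a control (adjusted p from 0.0594 to 0.418).

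Antiviral effectors were called in both directions, with 1 higher and 1 lower in ATF3, 0 and 1 in ATF4, 3 and 0 in CEBPG and 2 and 3 in CHOP knockouts of the 12 against the controls. Beside the shares of all genes (18.6% higher and 14.8% lower in ATF3, 16.6% and 14.6% in ATF4, 18.3% and 15% in CEBPG, 18.1% and 15.4% in CHOP knockouts), the CEBPG count higher and the CHOP count lower lay above, and the rest below. Ifit2, which binds viral RNA and restrains translation, was at 63.3, 74.9, 49.4, 65.9 and 61.6 CPM in ATF3, 25.5 and 11.9 CPM in ATF4 and 116, 59.5, 50.8 and 75.6 CPM in CEBPG knockouts. It was at 83.3, 48.03, 43.96, 33.2 and 62.6 CPM in CHOP knockouts and at a narrow 33.4, 31.7, 32.3 and 33.4 CPM in the controls. All ATF3 and CEBPG libraries lay above the controls and both ATF4 libraries below. Ifit2 was higher in ATF3 (0.95, SE 0.25, adjusted p = 0.005602) and CEBPG knockouts (1.2004, SE 0.27, adjusted p = 0.00108) than in the controls, and with the library in no group as a control these were 0.55 and 0.80 (adjusted p = 0.179 and 0.0533). It was also higher in CHOP knockouts (0.73, SE 0.25, adjusted p = 0.0295), a call that failed on omitting CHOP replicate 1 or 5 or control replicate 4, 5, 7 or 8 or with the library in no group as a control (adjusted p from 0.0527 to 0.424). In the ATF4 knockouts it was at -0.81, SE 0.34, adjusted p = 0.0757.

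Ifit1 and Ifit3 lie beside it on chromosome 19. Ifit1, which binds RNA that lacks the host cap structure, was at 48.5, 56.1, 59.4, 52.01 and 47.9 CPM in ATF3, 23.9 and 43.4 CPM in ATF4 and 57.04, 39.1, 57.6 and 81.1 CPM in CEBPG knockouts. It was at 51.2, 76.1, 83.96, 67.00 and 55.7 CPM in CHOP knockouts, all above the controls, which had 45.2, 32.2, 47.8 and 36.98 CPM. It was higher in CHOP knockouts (0.72, SE 0.204, adjusted p = 0.00823). Ifit3, a partner of Ifit1, was lower in ATF4 (-0.54, SE 0.199, adjusted p = 0.0435) and CHOP knockouts (-0.41, SE 0.15, adjusted p = 0.0391) than in the controls and higher in CEBPG than in CHOP knockouts (0.44, SE 0.15, adjusted p = 0.03198). The ATF4 call for Ifit3 failed on omitting ATF4 replicate 1 or control replicate 4 or 7 or with the 2 groups fitted alone (adjusted p from 0.0675 to 0.655), and it moved to -1.05 without ATF4 replicate 3. Its CHOP call failed on omitting CHOP replicate 3, 4 or 5 or control replicate 4 or 7 or with the library in no group as a CHOP knockout (adjusted p from 0.0525 to 0.479). The call for CEBPG against CHOP failed on omitting CEBPG replicate 6, 8 or 10 or CHOP replicate 4, with the library in no group as a CHOP knockout or without CEBPG replicates 6 and 8 together (adjusted p from 0.0519 to 0.434). The Ifit genes are close paralogs, and how reads shared by near-identical copies were counted has no statement in the sources used here.

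Isg15, a ubiquitin-like modifier, was at 7.28, 7.96, 9.31, 8.84 and 8.91 CPM in ATF3, 10.1 and 14.3 CPM in ATF4 and 12.9, 16.5, 17.01 and 20.9 CPM in CEBPG knockouts. It was at 8.12, 10.2, 11.1, 8.48 and 9.11 CPM in CHOP knockouts and 12.3, 12.96, 21.8 and 16.3 CPM in the controls. ATF3 and CHOP libraries all lay below the controls and below the CEBPG libraries. It was lower in ATF3 (-0.91, SE 0.23, adjusted p = 0.00399) and CHOP knockouts (-0.75, SE 0.23, adjusted p = 0.0148) than in the controls. The CHOP call failed on omitting control replicate 7 or with the library in no group as a CHOP knockout (adjusted p from 0.0624 to 0.0768). It was higher in CEBPG than in CHOP knockouts (0.84, SE 0.23, adjusted p = 0.00911) and lower in ATF3 than in CEBPG knockouts (-0.99, SE 0.23, adjusted p = 0.00336).

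Oas1a, a synthetase that activates the antiviral nuclease RNase L, was at 17.5, 17.3, 16.1, 21.7 and 16.1 CPM in ATF3, 11.7 and 21.1 CPM in ATF4 and 36.5, 21.5, 22.7 and 25.4 CPM in CEBPG knockouts. It was at 11.6, 20.02, 12.2, 12.9 and 12.5 CPM in CHOP knockouts and 13.1, 9.07, 14.03 and 10.6 CPM in the controls. All CEBPG libraries lay above all CHOP and control libraries. It was higher in CEBPG knockouts than in the controls (1.17, SE 0.25, adjusted p = 8.28e-04) and than in CHOP knockouts (0.93, SE 0.23, adjusted p = 0.00446). The restriction factors followed in part. Mx1 was higher in CEBPG knockouts than in the controls (2.85, SE 0.72, adjusted p = 0.00315), from means of 14.98 and 2.05 CPM, a call that failed with the library in no group as a control (adjusted p = 0.0518). It stood lower in ATF3 than in CEBPG knockouts (-1.94, SE 0.63, adjusted p = 0.0297), a call that failed on omitting ATF3 replicate 5, 7, 8 or 9 or CEBPG replicate 6 or 10 or without CEBPG replicates 6 and 8 together (adjusted p from 0.05301 to 0.0958). Bst2, which tethers budding virions to the cell, was lower in ATF3 than in CEBPG knockouts (-0.53, SE 0.17, adjusted p = 0.0274), a call that failed on omitting ATF3 replicate 6, 8 or 9 or CEBPG replicate 9 or 10 (adjusted p from 0.0548 to 0.129). Ifitm3, which blocks viral entry, was higher in CEBPG than in CHOP knockouts (0.94, SE 0.18, adjusted p = 4.22e-04) and lower in CHOP knockouts than in the controls (-0.58, SE 0.18, adjusted p = 0.0157). The first call failed with the library in no group as a CHOP knockout (adjusted p = 0.152), and the second on omitting control replicate 7 or with the library in no group as a CHOP knockout (adjusted p from 0.0784 to 0.637). Oas2, Oasl2, Mx2 and Rsad2 did not pass in any comparison, with means of 4.14 to 13.6, 41.6 to 67.1, 1.81 to 5.18 and 4.88 to 10.7 CPM across the groups.

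The guanylate-binding GTPases attack membranes around intracellular pathogens and respond strongly to interferon gamma. They were lower in ATF3, ATF4 and CHOP knockouts than in the controls, 3 of 3 in each (all genes 14.8%, 14.6% and 15.4%). In the CEBPG knockouts 0 of 3 passed (all genes 18.3% higher and 15% lower). Gbp2 was at 25.8, 32.8, 37.4, 37.6 and 27.9 CPM in ATF3, 7.03 and 22.2 CPM in ATF4 and 64.8, 98.6, 37.3 and 48.2 CPM in CEBPG knockouts. It was at 24.9, 36.5, 19.9, 25.6 and 16.7 CPM in CHOP knockouts and 116, 98.6, 103 and 92.1 CPM in the controls. CEBPG replicate 8 alone among the knockout libraries reached the controls. Its log2 fold change against the controls was -1.67 (SE 0.28, adjusted p = 4.64e-05) in ATF3, -2.81 (SE 0.42, adjusted p = 1.69e-05) in ATF4, -0.72 (SE 0.29, adjusted p = 0.0586) in CEBPG and -2.05 (SE 0.28, adjusted p = 3.25e-06) in CHOP knockouts. Without CEBPG replicate 8 the CEBPG value was -1.07 (adjusted p = 0.00661), and DESeq2 and the fit of the 2 groups alone also called it lower (adjusted p = 0.0438 and 0.04996). Within batch 3 Gbp2 was 1.33 (SE 0.28, adjusted p = 8.67e-04) for CEBPG against CHOP, 0.82 without CEBPG replicates 6 and 8, and -0.95 (SE 0.27, adjusted p = 0.0156) for ATF3 against CEBPG, a call that failed on omitting CEBPG replicate 8 or without CEBPG replicates 6 and 8 together (adjusted p from 0.109 to 0.389).

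Gbp3 was at 36.9, 45.8, 38.8, 41.1 and 33.8 CPM in ATF3, 13.2 and 18.7 CPM in ATF4 and 76.9, 50.6, 52.6 and 46.6 CPM in CEBPG knockouts. It was at 34.5, 32.5, 25.8, 21.8 and 27.8 CPM in CHOP knockouts and 58.5, 53.5, 68.6 and 45.6 CPM in the controls. The CEBPG libraries overlapped the controls, and the CHOP and ATF4 libraries lay below both. It was at -1.83 (SE 0.26, adjusted p = 8.19e-06) in ATF4 and -0.99 (SE 0.18, adjusted p = 1.18e-04) in CHOP knockouts against the controls. In the ATF3 knockouts it was at -0.53 (SE 0.18, adjusted p = 0.0246), a call that failed on omitting ATF3 replicate 5 or 9 or control replicate 4 or 7 or with the library in no group as a control (adjusted p from 0.05003 to 0.1497). It was 0.99 (SE 0.18, adjusted p = 2.05e-04) for CEBPG against CHOP. For ATF3 against CEBPG it was -0.53 (SE 0.18, adjusted p = 0.0362), a call that failed on omitting ATF3 replicate 5, 7, 8 or 9 or CEBPG replicate 6 or without CEBPG replicates 6 and 8 together (adjusted p from 0.0576 to 0.2703).

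Gbp7 was at 51.05, 56.5, 36.8, 48.7 and 72.95 CPM in ATF3, 21.3 and 32.5 CPM in ATF4 and 117, 103, 124 and 111 CPM in CEBPG knockouts. It was at 50.8, 65.2, 43.2, 69.5 and 67.7 CPM in CHOP knockouts and 114, 100.4, 77.5 and 96.7 CPM in the controls. No ATF3, ATF4 or CHOP library reached a control. Against the controls it was at -0.87 (SE 0.18, adjusted p = 5.45e-04) in ATF3, -1.85 (SE 0.26, adjusted p = 7.73e-06) in ATF4, 0.23 (SE 0.19, adjusted p = 0.383) in CEBPG and -0.71 (SE 0.18, adjusted p = 0.00325) in CHOP knockouts. It was 0.94 (SE 0.18, adjusted p = 3.76e-04) for CEBPG against CHOP and -1.097 (SE 0.18, adjusted p = 1.04e-04) for ATF3 against CEBPG. The Gbp genes lie side by side on chromosome 3 and share sequence, so reads may be split among them.

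The nuclear, ubiquitin and ADP-ribosylation factors were all higher in CEBPG knockouts than in the controls and than in CHOP knockouts. This held for 7 of 7 against the controls (all genes 18.3%) and 7 of 7 against the CHOP knockouts (all genes 13.5%). In ATF3 knockouts 5 of 7 were lower than in CEBPG knockouts (all genes 10.2%), while Dtx3l and Trim30a did not pass. Sp100, a component of the nuclear bodies built on the protein PML, was at 38.4, 45.2, 31.04, 44.7 and 41.6 CPM in ATF3, 6.85 and 6.002 CPM in ATF4 and 168, 138, 179.7 and 177 CPM in CEBPG knockouts. It was at 44.05, 40.97, 38.6, 43.1 and 34.8 CPM in CHOP knockouts and 14.9, 12.5, 19.6 and 13.5 CPM in the controls. The groups fell into separate steps, with both ATF4 libraries below the controls, the ATF3 and CHOP libraries above them at a common level, and the CEBPG libraries far above. Sp100 was at 3.45 (SE 0.17, adjusted p = 7.71e-13) in CEBPG knockouts against the controls, the largest log2 fold change of the 34 members. It was at 1.41 (SE 0.15, adjusted p = 1.78e-07) in ATF3, 1.41 (SE 0.16, adjusted p = 1.55e-07) in CHOP and -1.24 (SE 0.22, adjusted p = 1.17e-04) in ATF4 knockouts. Within batch 3 it was at 2.04 (SE 0.15, adjusted p = 1.97e-09) for CEBPG against CHOP and -2.04 (SE 0.15, adjusted p = 2.77e-09) for ATF3 against CEBPG, and at -0.00, SE 0.14, adjusted p = 0.998 for ATF3 against CHOP (95% interval -0.29 to 0.29). Mouse Sp100 (GRCm38 chromosome 1, 85649988 to 85709998, plus strand) has related multicopy sequence nearby, so its count may include reads of copies.

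Ifi35, which joins cytokine-induced protein complexes, was at 31.4, 26.4, 28.9, 26.4 and 30.03 CPM in ATF3, 32.5 and 32.7 CPM in ATF4 and 70.2, 69.1, 72.7 and 76.6 CPM in CEBPG knockouts. It was at 20.9, 37.6, 38.1, 23.9 and 23.3 CPM in CHOP knockouts and 25.2, 28.7, 56.2 and 33.9 CPM in the controls. Every CEBPG library lay above every other library, while the ATF3, ATF4 and CHOP libraries overlapped the controls. It was at 1.0002 (SE 0.22, adjusted p = 0.00104) in CEBPG knockouts against the controls, 1.32 (SE 0.21, adjusted p = 4.36e-05) for CEBPG against CHOP and -1.33 (SE 0.21, adjusted p = 5.52e-05) for ATF3 against CEBPG.

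Parp9, an ADP-ribosyl transferase that works in a complex with the ubiquitin ligase Dtx3l, was at 45.02, 54.8, 33.9, 43.5 and 32.5 CPM in ATF3, 9.63 and 19.1 CPM in ATF4 and 58.6, 58.5, 49.1 and 97.9 CPM in CEBPG knockouts. It was at 33.2, 22.8, 27.6, 24.05 and 20.3 CPM in CHOP knockouts and 25.7, 23.6, 27.3 and 21.1 CPM in the controls. Both ATF4 libraries lay below the controls and all ATF3 and CEBPG libraries above. It was higher in CEBPG (1.43, SE 0.24, adjusted p = 4.69e-05) and ATF3 knockouts (0.78, SE 0.23, adjusted p = 0.00961) than in the controls, the ATF3 value being 0.57 with the library in no group as a control (adjusted p = 0.0699). It was at 1.37 (SE 0.22, adjusted p = 6.27e-05) for CEBPG against CHOP. For ATF3 against CEBPG it was at -0.65 (SE 0.22, adjusted p = 0.0353), a call that failed on omitting ATF3 replicate 5, 7, 8 or 9 or CEBPG replicate 10 (adjusted p from 0.05103 to 0.205). Dtx3l was higher in CEBPG knockouts than in the controls (0.98, SE 0.27, adjusted p = 0.00664) and than in CHOP knockouts (0.92, SE 0.25, adjusted p = 0.00812). It was lower in ATF4 knockouts than in the controls (-1.15, SE 0.35, adjusted p = 0.0146), at -0.74 without ATF4 replicate 1 (adjusted p = 0.254) and -1.74 without replicate 3. The 2 genes overlap head to head on chromosome 16, Parp9 from 35938470 on the plus strand and Dtx3l to 35939151 on the minus strand (GRCm38), and without a stated strand setting reads of the overlap cannot be told apart.

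Parp14, another ADP-ribosyl transferase, was higher in CEBPG knockouts than in the controls (1.296, SE 0.34, adjusted p = 0.004995) and than in CHOP knockouts (1.03, SE 0.32, adjusted p = 0.0185), and lower in ATF3 than in CEBPG knockouts (-1.16, SE 0.32, adjusted p = 0.0107). It was lower in ATF4 knockouts than in the controls (-1.33, SE 0.45, adjusted p = 0.02696), a call that failed on omitting ATF4 replicate 1 or control replicate 5 or 7 or with the 2 groups fitted alone (adjusted p from 0.0506 to 0.2995). Without CEBPG replicates 6 and 8 together both within-batch calls for Parp14 were lost (adjusted p = 0.0786 and 0.0632). Xaf1, a pro-apoptotic partner of XIAP, was higher in CEBPG knockouts than in the controls (0.79, SE 0.25, adjusted p = 0.0189) and than in CHOP knockouts (0.96, SE 0.24, adjusted p = 0.00381), and lower in ATF3 than in CEBPG knockouts (-0.82, SE 0.24, adjusted p = 0.0153). The Xaf1 call against the controls failed on omitting CEBPG replicate 6 or control replicate 5 or 8 or with the 2 groups fitted alone (adjusted p from 0.0576 to 0.0767), and that of ATF3 against CEBPG on omitting CEBPG replicate 6 or without CEBPG replicates 6 and 8 together (adjusted p from 0.0554 to 0.0582). Trim30a, a ubiquitin ligase that restrains signalling of innate immunity in mice, was higher in CEBPG knockouts than in the controls (1.57, SE 0.47, adjusted p = 0.0115) and than in CHOP knockouts (1.35, SE 0.43, adjusted p = 0.0216). The first failed with the library in no group as a control (adjusted p = 0.112) and the second on omitting CEBPG replicate 9 or with the library in no group as a CHOP knockout (adjusted p from 0.08105 to 0.138).

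The ATF3 and CHOP knockouts, which share a batch and a sex, differed past the threshold for 0 of 34 members, which does not show that their levels are equal. For Irf1 the difference was -0.03 with a 95% interval of -0.29 to 0.23, and for Irf7 it was 0.17 (-0.14 to 0.49). For Gbp2 it was 0.38 (-0.17 to 0.94). Parp9 came nearest to the threshold, at 0.71, SE 0.21, adjusted p = 0.0769, with an interval of 0.27 to 1.16. Irf8, at 0.36, passed without CHOP replicate 3 (0.52, adjusted p = 0.0113).

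The interferon genes themselves were read alongside. Ifnb1, the first type I interferon made on sensing, was at 5 reads in CHOP replicate 1, at 5 and 8 reads in control replicates 7 and 8, and at 0 reads in every other library, so it was removed by the filter. Ifng had 75, 1, 63, 83 and 25 reads in ATF3, 3 and 0 reads in ATF4, 344, 829, 1008 and 1185 reads in CEBPG and 82, 256, 297, 70 and 69 reads in CHOP knockouts, and 0, 0, 0 and 21 reads in the controls. The CEBPG libraries held more than any other library. Ifng was higher in CEBPG than in CHOP knockouts (2.71, SE 0.73, adjusted p = 0.00769) and lower in ATF3 than in CEBPG knockouts (-4.604, SE 0.79, adjusted p = 1.89e-04). It averaged 42.9 CPM in CEBPG and 6.53 CPM in CHOP knockouts, and 0.469 CPM in the controls, where 1 library held all the reads, so that the fitted fold changes against the controls (6.39 and 3.68) depend on control replicate 8 and moved to 12.8 and 10.1 without it.

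Markers of leukocytes also differed between these groups, though against the controls not always in the direction of the members. Summed over 15 measured T and NK lymphocyte markers, libraries were at 306 to 351 CPM in ATF3, 18.6 to 67.1 CPM in ATF4, 1590 to 2555 CPM in CEBPG and 320 to 479 CPM in CHOP knockouts, and at 8.37 to 24.7 CPM in the controls. Of these markers 14 of 15 were higher in CEBPG than in CHOP knockouts (all genes 13.5%). In ATF3 knockouts 13 of 15 were lower than in CEBPG knockouts (all genes 10.2%). Against the controls 15 of 15 were higher in ATF3, 7 in ATF4, 15 in CEBPG and 14 in CHOP knockouts. In the controls Klrb1c was at 0 reads in all 4 libraries, while Cd3g averaged 325 CPM in CEBPG, 74.2 CPM in CHOP knockouts and 0.821 CPM in the controls. Summed monocyte, macrophage and neutrophil markers were at 2415 to 2997 CPM in CEBPG knockouts, with 13 of 13 higher than in CHOP knockouts. They were at 1221 to 1403 CPM in ATF3, 639 to 1113 CPM in ATF4 and 522 to 772 CPM in CHOP knockouts, and at 843 to 1290 CPM in the controls. Of the 13, 7 were higher and 0 lower in ATF3 than in CHOP knockouts (all genes 1.51% and 0.756%). Of 15 microglia markers, 11 were higher and 0 lower in CEBPG than in CHOP knockouts, with sums of 5657 to 7160 CPM and 3592 to 4995 CPM. For ATF3 against CHOP, 3 microglia markers were higher and 0 lower, and 0 of the 15 T and NK markers passed. Against the controls 4 microglia markers were higher and 0 lower in ATF3 and 5 and 1 in ATF4 knockouts. They numbered 9 and 0 in CEBPG and 1 and 3 in CHOP knockouts. For the 13 monocyte, macrophage and neutrophil markers the counts were 4 and 0, 1 and 1, 8 and 0, and 2 and 5 in that order. All genes were at 18.6% and 14.8%, 16.6% and 14.6%, 18.3% and 15%, and 18.1% and 15.4%. The part of these cells in the members' differences was not tested.

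**Figure D4:**
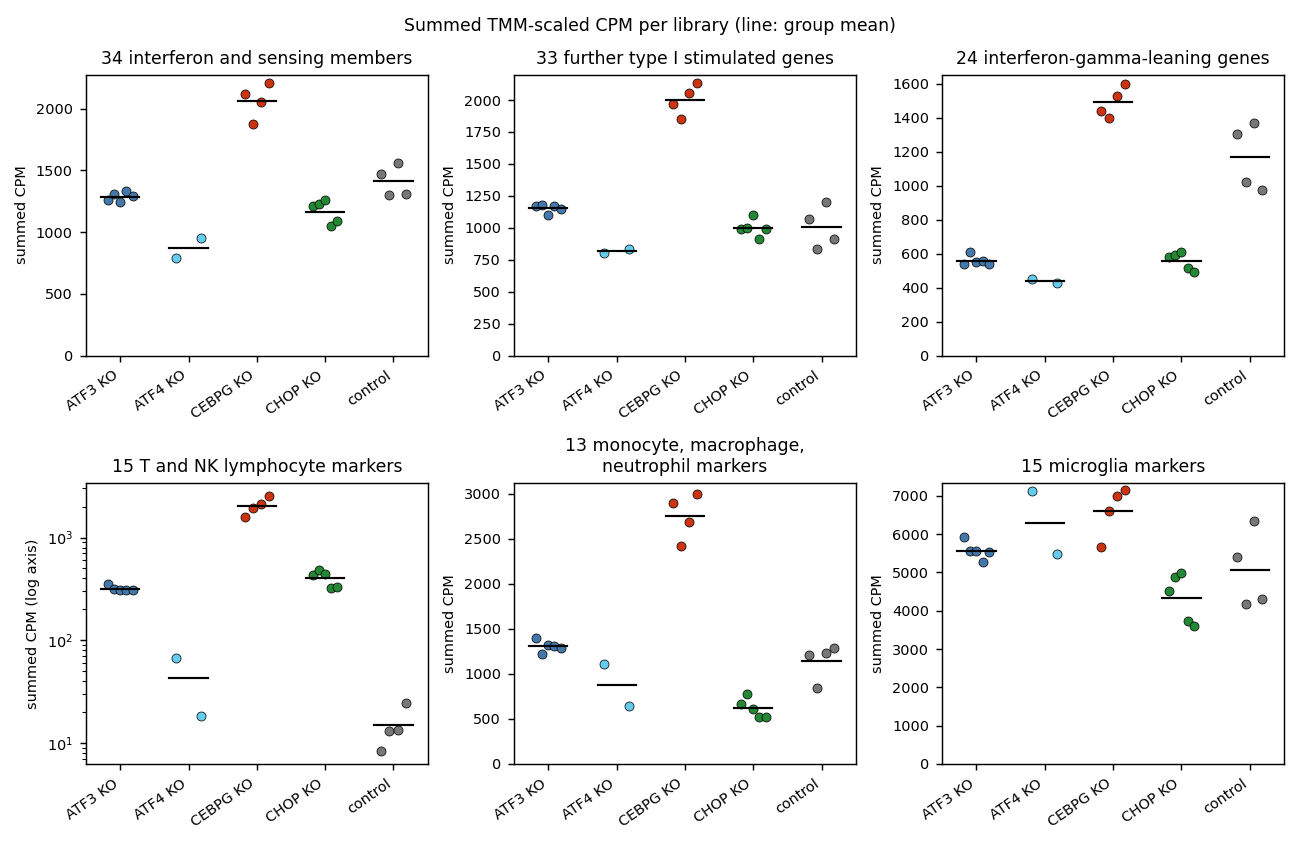
Summed CPM per library (points; lines, group means) of the members, 2 other interferon lists and 3 leukocyte marker lists in the 5 groups (x axis); the y axes start at 0 except that of the T and NK markers, which is a log axis. The 4 CEBPG libraries are highest for the members (1878 to 2206 CPM) and for the T and NK markers (1590 to 2555 CPM), and the controls have the second highest mean for the members (range 1302 to 1562 CPM) and the lowest for the T and NK markers (8.37 to 24.7 CPM).

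Other genes of the pathway were counted from lists drawn up by function. Of all genes, 13.5% were higher and 13.2% lower for CEBPG against CHOP, and 10.1% and 10.2% for ATF3 against CEBPG. Of 18 tested interferon, receptor and signal transducer genes, 16 were higher and 0 lower in CEBPG than in CHOP knockouts, and 0 were higher and 12 lower in ATF3 than in CEBPG knockouts. The interferon gamma receptor gene Ifngr1 was at 1.21 (SE 0.14, adjusted p = 1.11e-06) for CEBPG against CHOP and the feedback inhibitor Socs1 at 2.05 (SE 0.26, adjusted p = 3.09e-06). Against the controls 6 were higher and 3 lower in ATF3, 1 and 5 in ATF4, 13 and 1 in CEBPG and 4 and 5 in CHOP knockouts. All genes were at 18.6% and 14.8% in ATF3, 16.6% and 14.6% in ATF4, 18.3% and 15% in CEBPG and 18.1% and 15.4% in CHOP knockouts, so the ATF4 count higher and the CEBPG count lower lay below the share of all genes and the ATF3 count lower close to it. Leaving out 1 library moved the ATF3 count higher to 3 (control replicate 5), the CHOP count higher to 2 (CHOP replicate 1) or 1 (control replicate 5 or 8) and the ATF4 count lower to 3 (ATF4 replicate 3). It moved the ATF4 count higher to 3 (control replicate 7) or 0 (either ATF4 library) and the CEBPG count lower to 2 (CEBPG replicate 10 or control replicate 4). Irf3, the factor that sensors activate first, was lower in all 4 knockouts, at -1.35 in ATF3, -0.69 in ATF4, -0.59 in CEBPG and -1.12 in CHOP knockouts. The ATF4 call was lost without ATF4 replicate 3 (adjusted p = 0.0502), and the ATF4 and CEBPG calls with the library in no group as a control (adjusted p = 0.123 and 0.109).

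Of 24 sensors and adaptors outside the members, 12 were higher and 1 lower in CEBPG than in CHOP knockouts and 0 higher and 10 lower in ATF3 than in CEBPG knockouts. Without CEBPG replicates 6 and 8 these counts were 5 and 0, and 0 and 6, and without CHOP replicate 4 the CEBPG against CHOP count higher was 7. The kinase gene Ikbke was at 3.05 (SE 0.29, adjusted p = 6.28e-08) for CEBPG against CHOP and Samhd1, a nucleotide hydrolase that limits retroviruses, at 2.003 (SE 0.19, adjusted p = 5.99e-08). Against the controls 3 were higher and 2 lower in ATF3, 0 and 7 in ATF4, 10 and 3 in CEBPG and 3 and 3 in CHOP knockouts. Against the same shares of all genes, the CEBPG count higher and the ATF4 count lower lay above, and the rest below. Without ATF4 replicate 1 the ATF4 count lower was 3, and leaving out single libraries gave 1 to 3 higher and 1 to 3 lower in ATF3 and 7 to 10 higher and 1 to 3 lower in CEBPG knockouts. Mavs, the adaptor of the RNA sensors, was lower in CHOP knockouts (-1.34, SE 0.301, adjusted p = 0.00119), the CEBPG knockouts (-1.104, SE 0.32, adjusted p = 0.00977) and the ATF4 knockouts (-1.56, SE 0.42, adjusted p = 0.00646). Its ATF4 call was lost without ATF4 replicate 1, its CEBPG call with the 2 groups fitted alone or without CEBPG replicates 6 and 8, and its CHOP call with the library in no group as a CHOP knockout (adjusted p = 0.0808, 0.0506, 0.0570 and 0.0574).

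Of 33 further type I stimulated genes, 24 were higher and 0 lower in CEBPG than in CHOP knockouts, and 0 were higher and 18 lower in ATF3 than in CEBPG knockouts. Against the controls 7 were higher and 3 lower in ATF3, 0 and 9 in ATF4, 26 and 1 in CEBPG and 6 and 2 in CHOP knockouts. The CEBPG count higher and the ATF4 count lower lay above the same shares of all genes (18.3% and 14.6%), the ATF3 and CHOP counts higher close to theirs (18.6% and 18.1%), and the rest below. The ATF4 count lower was 4 without ATF4 replicate 3, the ATF3 count higher 4 without control replicate 5, and the ATF3 and CHOP counts lower ranged over 1 to 3 and 1 to 4 with single libraries left out. With the library in no group as a control the ATF3 counts were 3 and 2 and the CHOP counts 3 and 1. Slfn2, a regulator of T cell quiescence, was at 2.78 (SE 0.204, adjusted p = 1.97e-10) in CEBPG knockouts against the controls and 2.103 (SE 0.18, adjusted p = 2.21e-08) for CEBPG against CHOP. Sp110, a nuclear body gene beside Sp100, was at 2.16 (SE 0.198, adjusted p = 7.83e-09) and 2.14 (SE 0.18, adjusted p = 1.67e-08).

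The 24 genes that lean to interferon gamma, which hold the other guanylate-binding and the immunity-related GTPases, were low in most knockouts against the controls and high in CEBPG within the batch. Against the controls 0 were higher and 17 lower in ATF3 and 0 and 17 in ATF4 knockouts. In the CEBPG knockouts 9 were higher and 3 lower, and in the CHOP knockouts 0 and 18. Medians were -1.27 in ATF3, -1.92 in ATF4, 0.41 in CEBPG and -1.33 in CHOP knockouts. The counts lower in ATF3, ATF4 and CHOP knockouts lay above the shares of all genes (14.8%, 14.6% and 15.4%). So did the CEBPG count higher (18.3%), and the rest lay below (18.6%, 16.6% and 18.1% higher, and 15% lower in CEBPG). With the library in no group as a control the counts lower were 9 in ATF3 and 12 in CHOP knockouts, with 0 higher in both. Within batch 3, 20 were higher and 0 lower in CEBPG than in CHOP knockouts (all genes 13.5% and 13.2%). In the ATF3 knockouts 0 were higher and 19 lower than in CEBPG knockouts (all genes 10.1% and 10.2%). The GTPase gene Tgtp2 was at -2.43 (SE 0.24, adjusted p = 2.97e-08) in ATF3, -4.21 (SE 0.39, adjusted p = 4.32e-08) in ATF4 and -2.23 (SE 0.24, adjusted p = 9.53e-08) in CHOP knockouts. The GTPase gene Igtp was lower in all 4, at -1.603 in ATF3, -1.82 in ATF4, -0.77 in CEBPG and -1.38 in CHOP knockouts, the CEBPG value being -0.53 with the library in no group as a control (adjusted p = 0.155). The antigen presentation regulator Nlrc5 was at 1.54 (SE 0.19, adjusted p = 8.40e-07) in CEBPG knockouts. Between the ATF3 and CHOP knockouts 1 of the 24 passed (all genes 1.51% higher and 0.756% lower). It was the chemokine gene Cxcl10, at -1.93 (SE 0.36, adjusted p = 0.00347). In the other lists 1 of 18 interferon, receptor and signal transducer genes and 2 of 33 further type I stimulated genes were higher in ATF3 knockouts. None were lower, and 0 of 24 sensors and adaptors passed. Without ATF3 replicate 5 the type I count was 1, and without CHOP replicate 3 the receptor and transducer count was 2.

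In the authors' deposited table of log fold changes for each knockout, whose reference, model and log base have no statement in the sources used here, fewer members passed at an FDR below 0.05 and many signs differed from those above. It called 1 member higher and 2 lower in ATF3, 0 and 4 in ATF4, 6 and 0 in CEBPG and 1 and 1 in CHOP knockouts. The calls matched those above in direction for 1, 4, 5 and 2 members. Of the 34 members, 16 had the opposite sign in ATF3, 6 in ATF4, 6 in CEBPG and 17 in CHOP knockouts. Sp100 kept its directions, at 1.06 in ATF3, -1.15 in ATF4, 3.12 in CEBPG and 1.30 in CHOP knockouts in the authors' deposited table (FDR 0.0449, 0.114, 1.64e-08 and 0.0427). Irf1 in the authors' deposited table stood at 0.36, -1.94, 1.13 and 0.41 in that order (FDR 0.570, 0.00477, 0.000568 and 0.590), so its lower level in ATF3 and CHOP knockouts is not found there and its higher level in CEBPG knockouts passes. Gbp2 was at 0.34, -2.54, 0.49 and 0.12 in the authors' deposited table (FDR 0.840, 0.0431, 0.474 and 0.962). The cause of the differences between that table and the fit used here was not tested.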

How the data were processed

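RNA was measured in 20 grouped libraries of sorted mouse retinal cells, and 1 further library with contradictory labels was kept for checks. The authors deposited raw counts per gene, a sample sheet and a table of their own comparisons. Per the submitters' processing notes, STAR, Picard, HTSeq and edgeR were used with the mm10 build, and versions, strand setting and treatment of shared reads have no statement in the sources used here. The deposited table of comparisons gives log fold changes read as log2, with no stated base, model or reference, with deposited p-values and FDR (adjusted p-values). A total of 36 columns of per-sample values in the sheet were not used.

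Counts were fitted in R 4.3.3 with edgeR 4.0.16 (TMM scaling, filterByExpr with a minimum count of 10, robust quasi-likelihood test, 15 residual degrees of freedom, common biological coefficient of variation 0.407) over all 20 libraries at once. Of 17164 genes 16797 were tested, and p-values were adjusted by Benjamini-Hochberg over all of them with a threshold of 0.05. The standard error was taken as the log2 fold change divided by the square root of F, and CPM are TMM-scaled. Depth was 6401446 to 32776378 counted reads, and p-values measure the spread between libraries, whose separate animals are not stated. Replicates differed beyond sampling noise, with a chi-square per gene of 12.9 to 64.6 in every pair, so each counted once. The fit was tested on simulated data. Alternatives were RLE scaling, no filter, DESeq2 1.42.0, only the 2 groups compared, a replicate block, each library left out and the contradictory library placed in either group. Every member was accounted for. Called members at 5 CPM or more, up to 6 per direction and comparison by adjusted p, have every library's value, and pathway genes were named from up to 4 called per direction, of which the text gives some. The members and all lists were chosen with earlier results of these data known. Motifs were searched on both strands of 300-base RefSeq promoters. Single genes of the pathway and marker lists that are withheld are not reported here.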

Additional observations from a re-analysis of the deposited data

Results flagged for a closer look

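In a group of 4 or 5 libraries, a member was singled out where 1 library stood far from the rest by Dixon's criterion. This happened in 5 of the 136 groups examined, where chance gives about 6.8 (about 1 in 20). Irf8 was at 115.9 CPM in CHOP replicate 3 and at 72.5 to 77.7 CPM in the other CHOP knockouts. Oas1a was at 21.7 CPM in ATF3 replicate 8 against 16.1 to 17.5 CPM in the rest of its group, and at 20.02 CPM in CHOP replicate 2 against 11.6 to 12.9 CPM. Parp14 was at 7.77 CPM in ATF3 replicate 6 and at 12.9 to 14.9 CPM in the other ATF3 knockouts. Tmem173 was at 56.6 CPM in control replicate 7 and at 29.7 to 33.7 CPM in the other controls.

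The library titled as a control and labelled as a CHOP knockout, which entered no comparison, held 1629 CPM summed over the members when scaled with the other libraries, above the 1299 to 1559 CPM of the 4 controls. Of the 34 members 20 lay above all controls, 7 within their range and 7 below it. Against the CHOP knockouts 20 lay above, 11 within and 3 below their range.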

How the results depend on the processing

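No member's called log2 fold change reversed under any alternative. Such values stayed past the threshold 1195 times and missed it 183 times over the alternatives, and counts of members stayed within 1.5 times of those reported 190 times and moved further 20 times. RLE scaling, no filter and DESeq2 lost no call. DESeq2 called 1 member lower for CEBPG against the controls and 1 higher for ATF3 against CHOP. Fitting only the 2 groups gave 1 and 3 for these counts. With the contradictory library as a control, 1 member was higher in the ATF3 and 11 in the CEBPG knockouts. With it as a CHOP knockout, 5 were higher and 6 lower in the CHOP knockouts than in the controls. Without CEBPG replicates 6 and 8, an alternative added after seeing the data, 1 member was lower in the CEBPG knockouts than in the controls.

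Leaving out 1 library gave 11 to 16 members lower for ATF3 against CEBPG (11 without ATF3 replicate 9). It gave 0 to 1 higher and 8 to 14 lower for ATF4 against the controls, 0 to 1 lower for CEBPG against CHOP and against the controls, and 0 to 1 higher for ATF3 against CHOP.

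Replicate numbers are shared between groups, but same-numbered libraries did not deviate together (correlations -0.048 to 0.026), so the numbers do not pair them. With a replicate block (6 residual degrees of freedom) the counts were 6 lower for ATF4, 8 higher for CEBPG, 1 higher and 5 lower for CHOP against the controls, 8 lower for ATF3 against CEBPG and 4 higher for CEBPG against CHOP. The cause was not tested beyond the fewer degrees of freedom. Batch, and outside ATF4 also sex, cannot be told apart from knockout against the controls. ATF4 had 2 libraries, and controls were the shallowest group.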
